A study of Mus musculus with 107 samples.

Results

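Interferon-stimulated genes are the genes that cells switch on when interferons bind their receptors. They were followed here in mouse ear skin taken 24 h after a topical dose of sulfur mustard, a blistering alkylating agent. The set holds 41 genes in 6 roles: transcription factors, nucleic acid sensors, antiviral effectors, interferon-inducible GTPases, antigen processing and chemokines. The genes were chosen by name from what is known of the response, and with earlier results of these data known. Of the 41, 38 had a probe set of their own on the pair of Affymetrix arrays used (A and B), which name 18194 genes in all. Isg15 and Gbp4 had only probe sets shared with other genes, and Ifi44 had none. Another 9 members were dimmer than the minimum signal used for testing (Zbp1, Cmpk2, Ifit2, Ifit3, Oasl2, Mx1, Mx2, Bst2 and Gbp3), so that 29 were tested, 25 of them on array A and 4 on array B (Eif2ak2, Ifi35, Xaf1 and Cxcl9).

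Dimercaprol (6.25 mg, a dithiol chelator) before mustard was measured in 6 ears, indomethacin (1.34 mg, a cyclooxygenase inhibitor) before mustard in 6, and octylhomovanillamide (0.6 mg, a vanilloid) before mustard in 5. Mustard alone (0.08 mg) was measured in 5 ears, and the solvent methylene chloride in 21. Each drug was given in ethanol 15 min before mustard, whereas ears with mustard alone are labelled without any pretreatment, so a drug and its ethanol cannot be told apart. All mustard ears were right ears and all methylene chloride ears left ears, 17 of them from animals whose right ear is also among the mustard groups, so treatment and side cannot be told apart either. On array A only, further animals had dimercaprol (4 ears), indomethacin (4 ears) or octylhomovanillamide (5 ears) without mustard, ethanol (3 ears), or nothing (naive, 5 ears of 3 animals). These drug ears were all right ears. The ethanol ears were the left ears of animals 507, 515 and 520, whose right ears had dimercaprol, indomethacin and octylhomovanillamide. Drug and side cannot be told apart there, and the main fits did not pair these ears. The labels give no strain, sex or age. Each ear was 1 biopsy of whole skin, 8 mm across, in which a change in the number of cells of a type and a change in RNA per cell cannot be told apart.

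Interferons act through receptors coupled to JAK kinases. Type I interferons (alpha and beta) act through a complex that includes STAT2 and IRF9 and binds the interferon-stimulated response element, whereas interferon gamma acts through the gamma-activated site. The induced proteins degrade or mark viral RNA, block virus entry, attack vacuoles that hold microbes, cut and load peptides for display on MHC class I, and attract T cells. In skin, keratinocytes and resident or recruited leukocytes all respond to interferons.

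The promoters of the set were read from RefSeq (GRCm38.p6, 250 bases before to 50 after each gene start), which held 32 of the 41 genes. Gbp4, Iigp1, Mx1, Mx2, Oas2, Parp14, Sting1, Usp18 and Zbp1 had no entry. The interferon-stimulated response element, searched on both strands as TTTC, any 2 bases and TTTC again, was present in 17 of the 32 genes (53.1%), against 3.99% of all 27025 genes and 3.44% of all 32851 promoters. The gamma-activated site, searched as TTCNNNGAA, which reads the same on both strands, was present in 11 of the 32 (34.4%), against 9.55% of all genes and 8.3% of all promoters. Bst2, Eif2ak2, Gbp7, Ifitm3, Igtp and Oas1a held both, and 10 genes held neither in this window (Cmpk2, Cxcl9, Ifi44, Irf7, Irf9, Oasl1, Oasl2, Psmb9, Tap1 and Xaf1). A match is a match of letters and does not show a bound site.

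The 130 bases just before the start of 6 members that differed in the comparisons described here are shown to let the 2 motifs be seen side by side. Capitals mark bases that belong to either motif, and each stretch runs 5′ to 3′ on the gene's own strand. Gbp2 lies at chr3:142620533-142620662 (+), Igtp at chr11:58199426-58199555 (+), Gbp7 at chr3:142530206-142530335 (+), Ifit1 at chr19:34640759-34640888 (+), Rsad2 at chr12:26456453-26456582 (−) and Irf1 at chr11:53769884-53770013 (+).
Gbp2: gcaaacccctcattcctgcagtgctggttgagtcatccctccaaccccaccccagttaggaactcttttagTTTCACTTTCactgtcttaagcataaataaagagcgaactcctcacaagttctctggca
Igtp: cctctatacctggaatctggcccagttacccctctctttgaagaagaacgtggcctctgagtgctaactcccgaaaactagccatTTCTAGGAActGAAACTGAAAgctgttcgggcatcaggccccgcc
Gbp7: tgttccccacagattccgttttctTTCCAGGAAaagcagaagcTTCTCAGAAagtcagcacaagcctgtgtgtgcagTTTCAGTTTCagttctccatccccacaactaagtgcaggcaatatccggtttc
Ifit1: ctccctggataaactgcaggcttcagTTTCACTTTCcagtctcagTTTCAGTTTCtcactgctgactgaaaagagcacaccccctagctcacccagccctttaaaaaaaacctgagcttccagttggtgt
Rsad2: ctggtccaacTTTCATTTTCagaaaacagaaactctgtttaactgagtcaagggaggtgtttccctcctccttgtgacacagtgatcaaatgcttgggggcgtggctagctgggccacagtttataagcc
Irf1: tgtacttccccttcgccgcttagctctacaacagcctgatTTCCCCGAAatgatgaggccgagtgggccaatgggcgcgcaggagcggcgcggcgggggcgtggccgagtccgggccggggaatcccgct
Gbp2 and Rsad2 carry 1 response element each in this stretch, Ifit1 a pair of them, and Irf1 only a gamma-activated site. Igtp and Gbp7 carry both motifs.

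The arrays were not equally bright: before scaling, the 2% trimmed mean of array A ran from 66.3 to 267 over its 64 ears. That of array B ran from 18.7 to 51.7 over its 43 ears. Within the mustard group, the ears of animals 5 and 37 stood apart on array A. Their trimmed means were 85.7 and 66.3, against 117, 130 and 137 in the other mustard ears, and their Gapdh 3′ to 5′ log2 ratios, a sign of RNA integrity, were 0.634 and 0.777, against −0.0452 to 0.0792 in the other mustard ears and −0.246 to 0.240 in methylene chloride ears. Fits with brightness or the Gapdh ratio as a covariate are given beside the comparisons with mustard alone, and for the other comparisons they change in the last section. All signals here were scaled to a trimmed mean of 500, differences are on the scale of log2(scaled signal + 16), and a gene was called at a limma adjusted p under 0.05 over all probe sets of its array. The keratins Krt14 and Krt10 of the epidermis were bright, at 24398 and 29284 in mustard ears and 18168 and 23493 in methylene chloride ears. Of 9 tested keratinocyte genes these 2 were higher after mustard and 4 lower (Krt15 −1.26, Flg −0.90, Trp63 −0.90 and Ivl −0.83), and the median level of the list was 12.94 in mustard ears and 13.23 in methylene chloride ears on the log2 scale. Nothing in the labels says how animals were allocated. The p-values set differences between groups against the spread between these ears, which the main fits took as independent.

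Mustard ears were first set against methylene chloride ears, which asks which interferon-stimulated genes differ after mustard alone. Of 29 tested members, 16 were higher after mustard and none was lower. Among all probe sets tested, 19.3% were called higher and 23.4% lower on array A, where 15 of 25 members were higher. On array B, where 1 of 4 members was higher, 12.8% were called higher and 13.1% lower. The 16 were 11 of 12 antiviral effectors, 3 of 5 GTPases (Gbp2, Gbp7 and Igtp), the sensor adaptor Sting1 of 3 sensors and Irf1 of 4 transcription factors. No antigen processing gene (of 3) and no chemokine (of 2) was called. The median difference of the members was 0.44, against −0.00 for all array A probe sets. On signals left without rescaling the median of all probe sets was −0.60 and that of the members −0.15, and 3 members were called higher and 6 lower. Rsad2, Oas2 and Ifitm3 were the 3 higher, and Irf7, Irf9, Stat2, Ifih1, Psmb8 and Psmb9 the 6 lower, so that every direction given here is relative to the rest of the array. With the animal as a fixed block, which kept only animals with both ears (4 mustard and 17 methylene chloride ears), the count was 6 (Rsad2, Oas2, Ifitm3, Ifi35, Trim30a and Gbp2). Without the mustard ears of animals 5 and 37 the count was 9 (the 6 of the fixed block with Sting1, Parp14 and Igtp). With array brightness as a covariate it was 5 (Rsad2, Oas2, Ifitm3, Ifi35 and Gbp2) and the members' median 0.27, and with the Gapdh ratio it was 8 (these 5 with Sting1, Parp14 and Igtp) and the median 0.28.

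**Figure D1:**
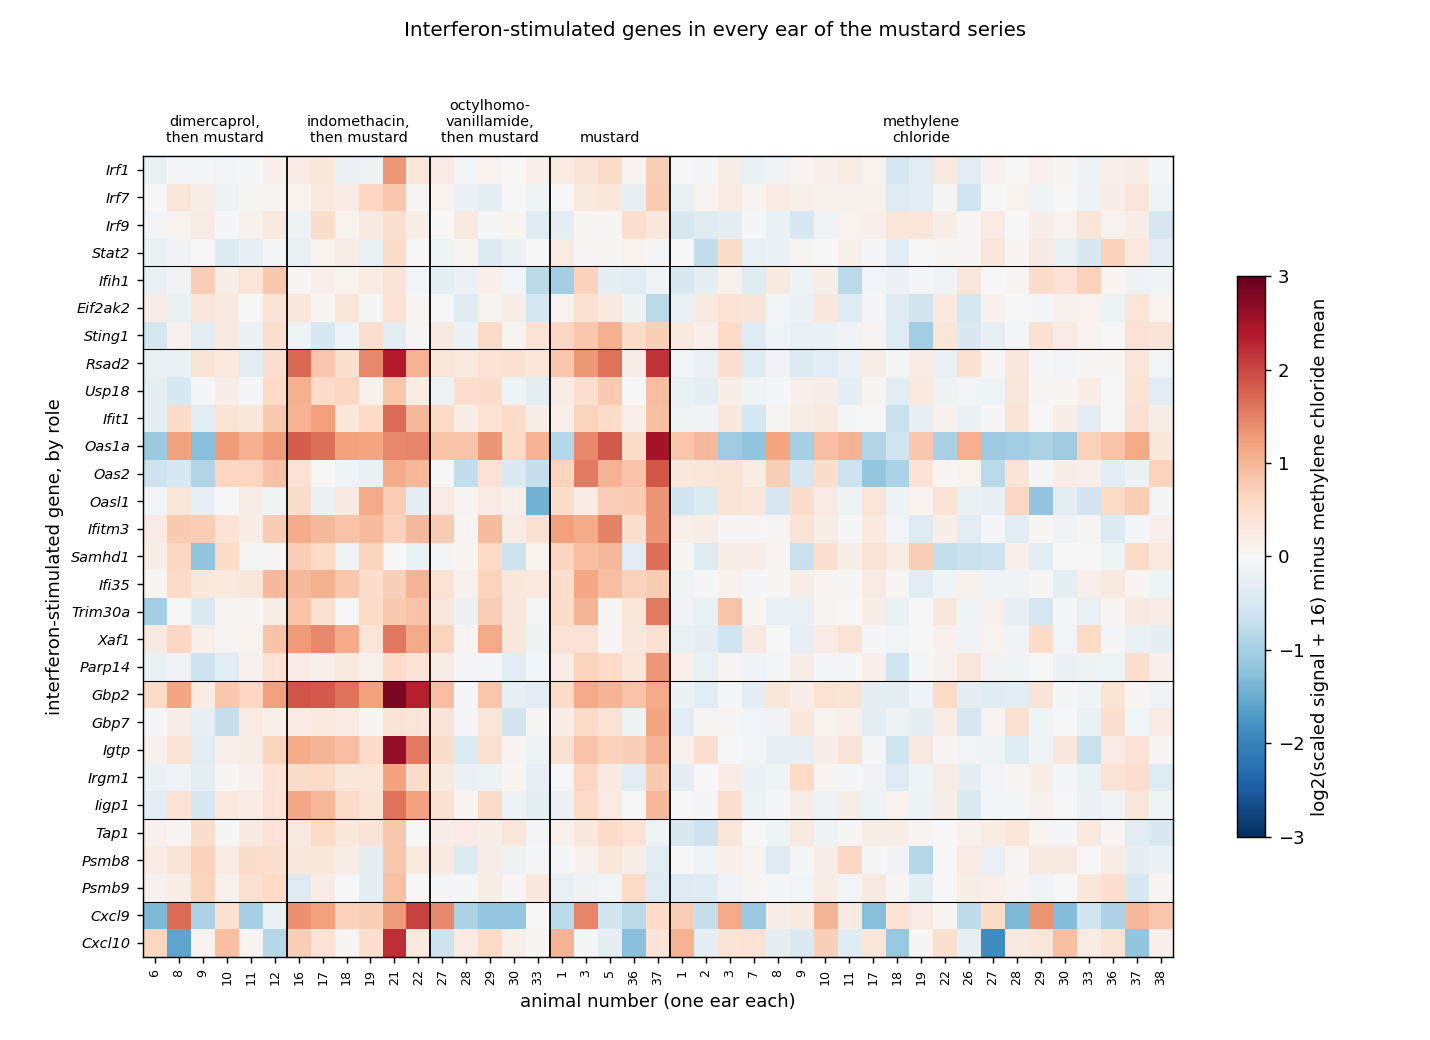
Heat map of the tested interferon-stimulated genes (rows, by role) in single ears (columns, by treatment group), coloured by log2(scaled signal + 16) minus the mean of the methylene chloride ears. Most effector and GTPase rows are raised in mustard ears and in ears given indomethacin before mustard, and the antigen processing rows differ less.

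The heat map of single ears shows how uneven the mustard group was. Averaged over the 27 members measured on array A, the difference from the methylene chloride mean was 0.50 ± 0.27 (SD, n = 5) in mustard ears, and it ran from 0.22 to 0.88. Animals 37 and 5, the ears with dim arrays and raised Gapdh ratios, gave 0.88 and 0.55, and animal 3, with a trimmed mean of 130 and a Gapdh ratio of 0.0792, gave 0.61. Animals 1 and 36 gave 0.25 and 0.22. The 21 methylene chloride ears spread from −0.26 to 0.19 around their own mean, with an SD of 0.11, so all 5 mustard ears lay above every methylene chloride ear.

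Ifitm3, a membrane protein that blocks virus entry from endosomes, was one of the brightest members. In mustard ears, here and after in the order of animals 1, 3, 5, 36 and 37, it read 7369.6, 6846, 8903, 4372 and 7954, against a low of 2349.5, a median of 3223 and a high of 4114 in methylene chloride ears. All 5 mustard ears were above all 21 methylene chloride ears. The difference was 1.13 ± 0.13 (log2 ± SE, limma adjusted p = 2.83e-09), which is 2.19-fold.

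Ifi35, a leucine zipper protein that pairs with Nmi, read 6117, 9523, 7958, 6848 and 7200.4 in mustard ears on array B, against a low of 3391, a median of 4364 and a high of 5080.5 in methylene chloride ears. Again no ear of either group entered the range of the other. The difference was 0.81 ± 0.10 (limma adjusted p = 6.15e-08). The probe set is of the kind that may also detect related transcripts, but a dimmer Ifi35 probe set on array A gave 0.73.

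Rsad2, which encodes viperin, an enzyme that makes a chain-terminating nucleotide, read 280.5, 398, 509, 177 and 751 in mustard ears, against a low of 111, a median of 146 and a high of 223 in methylene chloride ears. Animal 36, at 177, was the mustard ear that fell inside the methylene chloride range. The difference of 1.22 ± 0.20 (limma adjusted p = 4.52e-06) was the largest of the 29. A dimmer Rsad2 probe set on array A did not show it, with a difference of −0.06 (adjusted p = 0.789).

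Oas2, an oligoadenylate synthetase that activates RNase L in the presence of double-stranded RNA, read 129, 256, 172, 150.2 and 319 in mustard ears, against a low of 25.2, a median of 85.1 and a high of 135 in methylene chloride ears. Animal 1, at 129, was the mustard ear inside the methylene chloride range. The difference was 1.20 ± 0.28 (limma adjusted p = 0.000457). Oas2 is a dim gene close to the minimum signal, and the constant of 16 makes its difference smaller than the ratio of its signals.

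Other effectors rose by less or rested on fewer ears. Trim30a, a TRIM family protein, read 379, 538, 268, 337 and 794 in mustard ears, against a low of 174, a median of 254 and a high of 477 in methylene chloride ears, and 2 of 5 mustard ears were above that range (difference 0.70 ± 0.18, limma adjusted p = 0.0012). Parp14, a mono-ADP-ribosyltransferase, read 174, 243, 232, 194 and 389 in mustard ears, against 93.1, 145 and 215 as the low, median and high in methylene chloride ears (difference 0.63 ± 0.14, limma adjusted p = 0.000233). Both genes were highest in animal 37.

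Samhd1, which hydrolyses deoxynucleotides, read 614, 743, 779, 303 and 1246 in mustard ears, against a low of 231, a median of 413 and a high of 657 in methylene chloride ears. Animals 1 and 36 lay inside that range. The difference was 0.76 ± 0.24 (limma adjusted p = 0.00801). All 4 Samhd1 probe sets on array A pointed up, with differences from 0.58 to 1.02, and each was called. Without animal 37 the call of the probe set used here was lost, although the dimmer ones were not tried that way.

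Usp18, the protease that removes ISG15 from proteins and dampens type I interferon receptor signalling, read 112, 139, 172, 95 and 191 in mustard ears, against 71.8, 93.0 and 129 as the low, median and high in methylene chloride ears. Its difference was 0.48 ± 0.15 (limma adjusted p = 0.00994). Ifit1, which binds viral RNA ends, had the same size of difference, 0.48 ± 0.17 (adjusted p = 0.019). Oasl1, which in the mouse limits Irf7 translation, differed by 0.72 ± 0.24 (adjusted p = 0.0129), and Oas1a, a further oligoadenylate synthetase, by 1.09 ± 0.45 (adjusted p = 0.0452). These calls hung on single ears: Usp18 was lost without animal 5 or 37, Ifit1 without 3 or 37, Oasl1 without 37, and Oas1a without 3, 5 or 37. Xaf1, a pro-apoptotic partner of XIAP, was the effector that was not called (difference 0.33, adjusted p = 0.126).

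**Figure D2:**
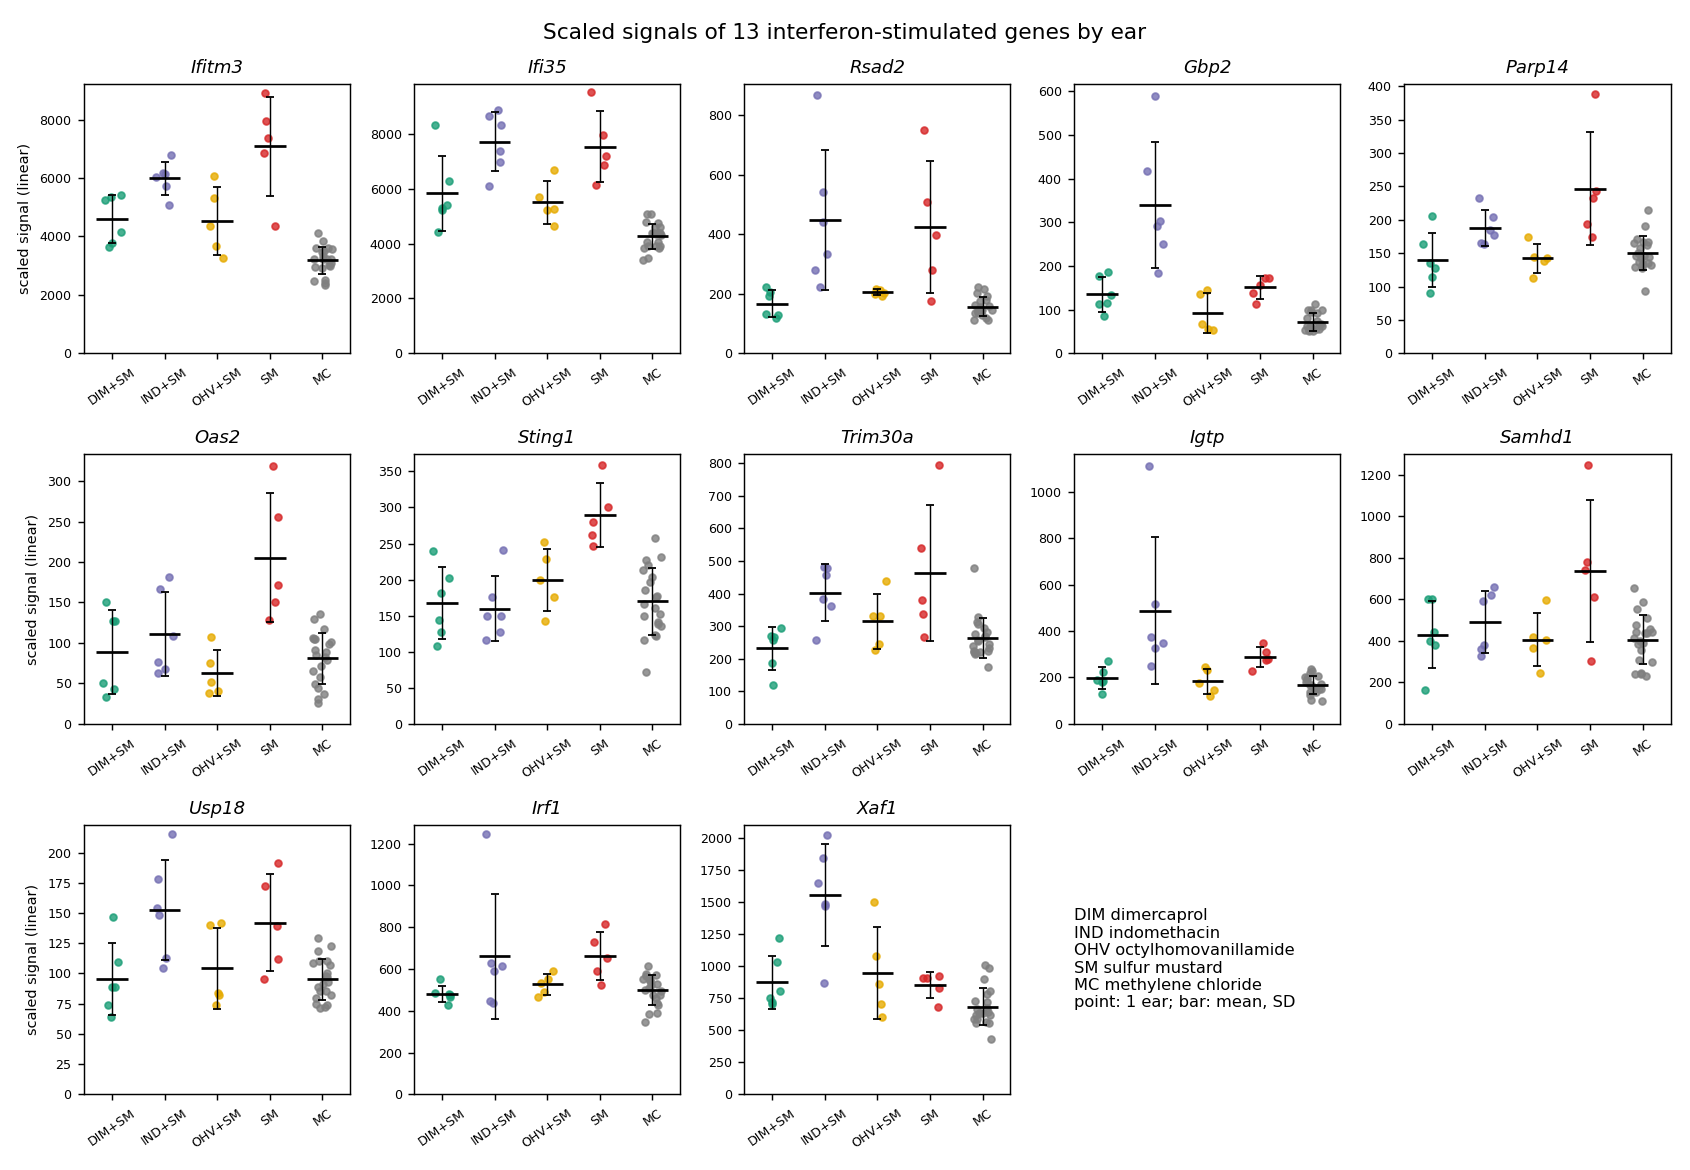
Scaled signal on a linear axis for 13 interferon-stimulated genes, by treatment group, with 1 point for each ear and bars for the mean and SD of the group. For Ifitm3 and Ifi35 no mustard ear falls within the range of the methylene chloride ears, and Gbp2 has its highest group mean in ears given indomethacin before mustard (single ears 185 to 591).

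Among the GTPases, guanylate-binding protein Gbp2 read 113, 173, 157, 139 and 172 in mustard ears, against a low of 50.3, a median of 63.3 and a high of 113 in methylene chloride ears. Every mustard ear lay above the methylene chloride range, the lowest only just. The difference was 0.94 ± 0.19 (limma adjusted p = 0.000119). Igtp, an immunity-related GTPase that acts on vacuoles holding microbes, read 229.9, 308, 273, 278 and 350.4 in mustard ears, against 98.3, 167 and 237 as the low, median and high in methylene chloride ears (difference 0.74 ± 0.19, adjusted p = 0.00171). Gbp7 differed by 0.44 ± 0.15 (adjusted p = 0.02), a call lost without animal 3 or 37. The plot of signals by ear shows this separation for Gbp2 beside that of Ifitm3 and Ifi35. Irgm1 (0.27) and Iigp1 (0.33), 2 more immunity-related GTPases, were not called.

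Irf1, a transcription factor that interferon gamma induces directly, read 592, 651, 729, 523 and 816 in mustard ears, against a low of 345, a median of 508 and a high of 613 in methylene chloride ears. The groups overlapped in 2 mustard ears. The difference was 0.40 ± 0.13 (limma adjusted p = 0.0126), it was lost without animal 37, and it was −0.22 without rescaling. Irf7, which drives interferon alpha genes (0.23), and Irf9 (0.12) and Stat2 (0.07), which belong to the type I complex, were not called.

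Sting1, the adaptor through which cytosolic DNA triggers interferon, read 262, 301, 359.6, 246 and 279.6 in mustard ears, against a low of 71.5, a median of 166 and a high of 258 in methylene chloride ears. Only animal 36 lay within the methylene chloride range. The difference was 0.75 ± 0.17 (limma adjusted p = 0.00051), and an array B probe set of Sting1 gave 2.00. Ifih1, which encodes the double-stranded RNA sensor MDA5 (−0.21), and Eif2ak2, the kinase PKR that halts translation (−0.02), were not called. Dimmer Eif2ak2 probe sets on array A gave 0.09 and 0.46, neither called (limma adjusted p = 0.594 and 0.0504).

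Genes for making and loading MHC class I peptides had small differences, none of them called. The differences were 0.27 for Tap1, the peptide transporter (limma adjusted p = 0.0848), and 0.05 and −0.05 for the immunoproteasome subunits Psmb8 and Psmb9. The Cxcr3 ligands Cxcl9 and Cxcl10, which attract T cells, differed by −0.03 each, with wide 95% intervals that the plot of differences shows. In these chemokines single ears spread far: Cxcl9 ran from 34.3 to 229 in mustard ears, against 18.8 to 208 in methylene chloride ears.

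The 9 members below the minimum signal of 100 are reported apart. Their mean scaled signals were 20.1 for Ifit2, 27.1 for Mx2, 30.9 for Oasl2, 34.8 for Cmpk2, 40.5 for Bst2, 47.2 for Zbp1, 61.9 for Gbp3, 67.2 for Mx1 and 99.1 for Ifit3, while Cxcl9, Cxcl10 and Oas2 were just inside at 103 each. With no minimum, 20 of the 38 members were called higher after mustard, among them 5 of these 9 (Zbp1, Bst2, Mx1, Oasl2 and Ifit2). In that fit 19 of 34 members on array A were higher, where 15.6% of all probe sets were higher and 17.2% lower, and 1 of 4 on array B, where 10.9% were higher and 9.96% lower. Bst2, or tetherin, which holds budding virus at the membrane, averaged 84.2 ± 58.4 in mustard ears and 22.1 ± 14.9 in methylene chloride ears (difference 1.24 ± 0.28, limma adjusted p = 0.000545). Zbp1, a sensor of Z-form nucleic acid, averaged 81.9 ± 27.4 in mustard ears and 30.9 ± 16.8 in methylene chloride ears (1.08 ± 0.22, adjusted p = 0.000178). Its difference from mustard was −0.99 with dimercaprol before mustard (adjusted p = 0.0074) and −1.32 with octylhomovanillamide before mustard (adjusted p = 0.00282).

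Of the 24 tested members with a RefSeq promoter, the response element was present in 8 of the 12 that rose after mustard and in 5 of the 12 that were not called. The gamma-activated site was present in 7 of those 12 and in 2 of the other 12. For indomethacin before mustard against methylene chloride it was present in 5 of the 14 called and 4 of the 10 not called, and the response element in 8 of the 14 and 5 of the 10. Against mustard, the site was present in 4 of 6 called and 5 of 18 not called with dimercaprol, and in 2 of 5 and 7 of 19 with octylhomovanillamide. The response element was present in 4 of 6 and 9 of 18 with dimercaprol, and in 3 of 5 and 10 of 19 with octylhomovanillamide. These counts are small and are given without a test.

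Leukocyte marker lists differed in both directions in the same ears. Among all probe sets tested, 19.3% were called higher and 23.4% lower on array A, and 12.8% and 13.1% on array B. Of 13 listed neutrophil genes 8 were tested. After mustard 6 rose (among them Clec4d 1.75, Csf3r 1.63, Fpr2 1.19 and Ngp 0.87) and 1 fell (−0.46). The mean log2 level of the tested neutrophil genes over the 7 on array A ran from 7.67 to 9.07 in mustard ears and from 7.06 to 7.69 in methylene chloride ears. Of 11 macrophage genes 10 were tested and 5 rose (Clec7a 2.01, Cd14 1.48, Cd68 1.16), with levels of 8.32 to 9.54 in mustard ears and 8.04 to 9.00 in methylene chloride ears. Of 16 T and NK cell genes 8 were tested, 1 rose and 1 fell, with levels of 6.95 to 7.45 in mustard ears and 6.90 to 7.87 in methylene chloride ears. Of 9 tested antigen-presenting and Langerhans cell genes none rose and 4 fell (H2-Aa −1.04, H2-Ab1 −0.87, Cd74 −0.79 and Cd207 −0.48), with levels of 8.26 to 9.17 in mustard ears and 8.69 to 9.81 in methylene chloride ears. H2-Aa, H2-Ab1 and Cd74 belong to MHC class II presentation, which interferon gamma is known to induce. Of 5 tested plasmacytoid dendritic cell genes Siglech rose by 0.44 and Tcf4 fell by 1.16, and the level over the 3 on array A was 9.74 to 9.95 in mustard ears and 9.94 to 10.36 in methylene chloride ears. The part of recruited cells in the interferon-stimulated genes was not tested.

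Around the set, the pathway itself was mixed. Of 11 listed interferon and related cytokine genes only 4 passed the minimum, and Ifng, Ifna1, Ifna2 (mean signal 41.8) and Ifna4 (17.9) did not. Ifnb1 averaged 93.8 ± 46.3 in mustard ears and 82.1 ± 28.1 in methylene chloride ears, and was not called, whereas Il18 fell by 0.60. Of 16 tested receptor and JAK-STAT genes 4 rose and 2 fell after mustard. The shares over all probe sets were 19.3% higher and 23.4% lower on array A, and 12.8% and 13.1% on array B. The feedback inhibitor Socs3 rose by 1.61 (limma adjusted p = 3.83e-07) and Socs1 by 0.63, while the interferon lambda receptor chain Ifnlr1 fell by 0.75 (adjusted p = 8.65e-06). Ptpn2, a phosphatase that acts on JAK and STAT proteins, rose by 0.58.

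Of 15 tested genes listed around the induction of interferon, the adaptor Myd88 rose by 0.82, the factor Irf3 by 0.47 and the RNA-editing enzyme Adar by 0.47. The adaptor Mavs fell by 0.29. Of 29 further tested interferon targets 5 rose and 4 fell. For both lists the shares over all probe sets were 19.3% higher and 23.4% lower on array A, and 12.8% and 13.1% on array B. Isg20, an antiviral exonuclease, averaged 371 ± 254 in mustard ears and 94.5 ± 38.7 in methylene chloride ears (difference 1.69, limma adjusted p = 3.84e-06). Ifitm1 rose by 1.29, and Slfn2, of the Schlafen family, by 1.07. Nampt, the enzyme of NAD salvage, fell by 1.08, so the further targets did not all go the same way. Of 14 tested class I genes, the heavy chain H2-K1 and the chaperone Calr rose, and Tapbp and Tapbpl fell.

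Ears given dimercaprol before mustard were then set against ears with mustard alone. Of 29 tested members, 10 fell and none rose. On array A, 9 of 25 members were lower, where 15.6% of all probe sets were higher and 11.2% lower. On array B 1 of 4 was lower, where 9.37% were higher and 7.09% lower. The 10 were 7 effectors (Oas2, Rsad2, Trim30a, Parp14, Ifitm3, Usp18 and Ifi35) with Sting1, Gbp7 and Irf1. The comparisons of the 3 drugs and that of mustard with methylene chloride all use the same 5 mustard ears, so a mustard ear that reads high moves all of them. The median difference of the members was −0.26, against −0.00 for all array A probe sets. Without rescaling all probe sets shifted by 0.86, the members by 0.45, and 13 members were called higher and none lower. With the animal as a block, which left 4 dimercaprol and 4 mustard ears, only Ifitm3 stayed called (−0.74, limma adjusted p = 0.0419). Without the mustard ears of animals 5 and 37 only Trim30a did (−0.83). With array brightness as a covariate limma called none, with 2 members at an unadjusted p under 0.05, and the members' median was −0.11 against 0.04 for all array A probe sets. With the Gapdh ratio Trim30a and Parp14 were called and the median was −0.23.

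Rsad2 had a low of 119, a median of 161 and a high of 224 in ears given dimercaprol before mustard, against 280.5, 398, 509, 177 and 751 in mustard ears. The groups overlapped between 177 and 224, with 3 of 6 ears below every mustard ear. The difference was −1.15 ± 0.25 (limma adjusted p = 0.000542), whereas the dimmer Rsad2 probe set gave −0.10 (adjusted p = 0.72). Oas2 had 32.9, 89.3 and 151 as its low, median and high in ears given dimercaprol before mustard, and its difference was −1.17 ± 0.34 (adjusted p = 0.00792).

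Trim30a had a low of 120.2, a median of 261 and a high of 294 in ears given dimercaprol before mustard, against 379, 538, 268, 337 and 794 in mustard ears, and 4 of the 6 were below every mustard ear. The difference was −0.90 ± 0.21 (limma adjusted p = 0.00162). Sting1 had 108, 163 and 239.7 as low, median and high, all 6 ears below the lowest mustard ear at 246, with a difference of −0.77 ± 0.21 (adjusted p = 0.0058). The Sting1 probe set on array B gave −1.02 and was not called (limma adjusted p = 0.176). Parp14 had 89.8, 132 and 205 as low, median and high in ears given dimercaprol before mustard, with 5 of 6 ears below every mustard ear (−0.74 ± 0.17, adjusted p = 0.000802).

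Ifitm3 averaged 4597 ± 836 in ears given dimercaprol before mustard and 7089 ± 1700 in mustard ears (SD, n = 6 and 5), a difference of −0.60 ± 0.15 (limma adjusted p = 0.00291). Ifi35 differed by −0.38, Irf1 by −0.44, Usp18 by −0.51 and Gbp7 by −0.51, with adjusted p between 0.031 and 0.0402. Dimmer Ifi35 probe sets gave −0.25 on array B and −0.24 on array A, neither called (limma adjusted p = 0.138 and 0.304). A second Gbp7 probe set of similar brightness gave −0.06 (adjusted p = 0.814). Gbp2 stood apart from these: it averaged 135 ± 39.6 in ears given dimercaprol before mustard and 151 ± 25.4 in mustard ears, a difference of −0.17 that was not called (adjusted p = 0.633). Psmb8 and Psmb9 were 0.38 and 0.41 higher and Ifih1 0.50 higher, none of them called. Samhd1 was not called at its brightest probe set (−0.73, limma adjusted p = 0.0553). Its dimmer array A probe sets gave −0.67 and −0.85, both called, and −0.46, not called.

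In the same comparison 5 of 8 tested neutrophil genes and 4 of 10 macrophage genes fell, and none rose. Of 9 antigen-presenting and Langerhans cell genes H2-Aa (0.69) and Cd74 (0.57) rose and Itgax (−0.40) fell, and of 5 plasmacytoid dendritic cell genes Tcf4 (1.12) rose and Siglech (−0.59) fell. The neutrophil level ran from 7.20 to 7.62 in ears given dimercaprol before mustard and from 7.67 to 9.07 in mustard ears, without overlap. Socs3 fell by 1.49, Socs1 by 0.65, Isg20 by 1.70, Ifitm1 by 1.32 and Slfn2 by 1.01. Of the lists around the set, receptors and JAK-STAT had 2 of 16 genes higher and 2 lower, and the further targets 4 of 29 higher and 4 lower. Among all probe sets 15.6% were higher and 11.2% lower on array A, and 9.37% and 7.09% on array B. The part of leukocyte numbers was not tested.

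**Figure D3:**
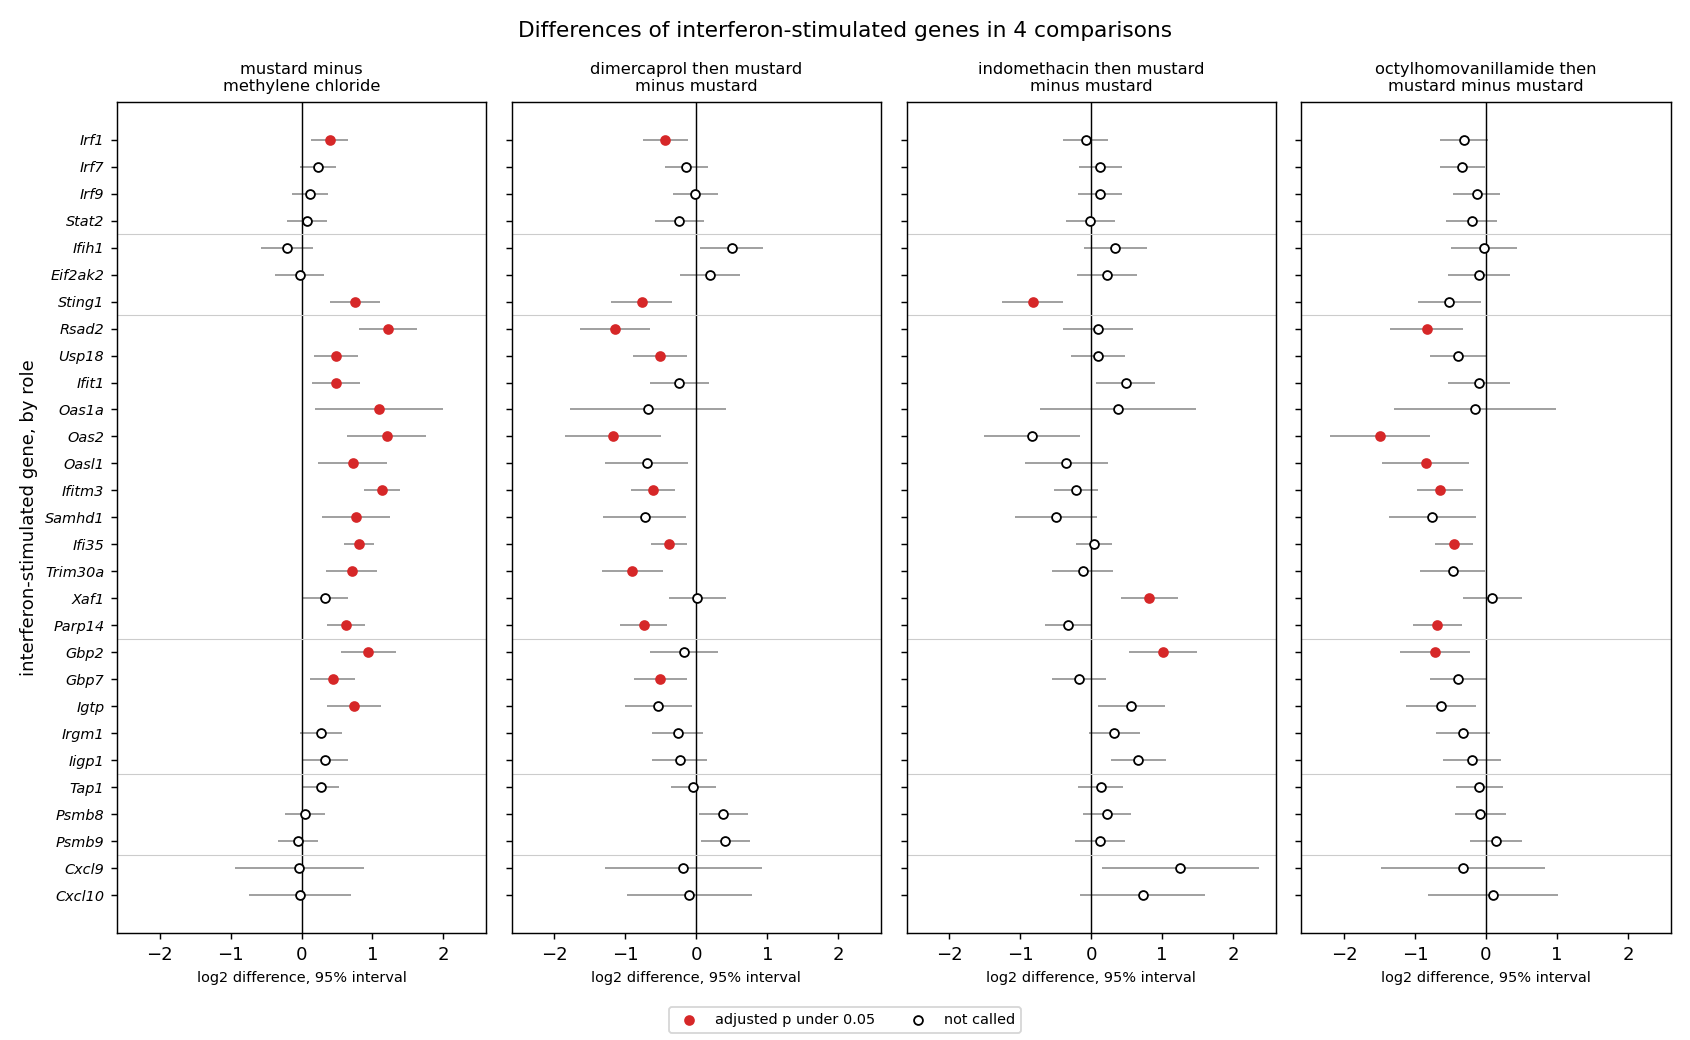
Log2 differences with 95% intervals for each tested interferon-stimulated gene (rows, by role) in 4 comparisons (panels); filled points are called at a limma adjusted p under 0.05. Called points lie right of zero in mustard ears, left of zero with dimercaprol or octylhomovanillamide before mustard, and on both sides with indomethacin before mustard.

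Indomethacin before mustard gave another picture. Against mustard ears 2 members rose, Gbp2 and Xaf1, and 1 fell, Sting1. Among all probe sets tested, 1.15% were called higher and 0.652% lower on array A, and 2.39% higher and 0.775% lower on array B. The median difference of the members was 0.12, against −0.01 for all array A probe sets. Without rescaling all probe sets shifted by 0.52 and the members by 0.66, and 17 were called higher and none lower. With the animal as a block, or without the mustard ears of animals 5 and 37, limma called none, with 3 and 9 members at an unadjusted p under 0.05. It also called none with array brightness or the Gapdh ratio as a covariate, with 9 and 10 at an unadjusted p under 0.05.

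Gbp2 had a low of 185, a median of 297 and a high of 591 in ears given indomethacin before mustard, against 113, 173, 157, 139 and 172 in mustard ears. All 6 ears were above every mustard ear. The difference was 1.01 ± 0.24 (limma adjusted p = 0.0349), and it was lost when the mustard ear of animal 5 or 37, or the indomethacin ear of animal 17 or 21, was left out.

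Xaf1 had 868, 1566 and 2022 as its low, median and high in ears given indomethacin before mustard, against 908, 907, 684, 829.7 and 925 in mustard ears, with 5 of 6 ears above every mustard ear. The difference was 0.82 ± 0.20 (limma adjusted p = 0.0171), lost without animal 5 or 37. A dimmer Xaf1 probe set on array B gave −0.57 (adjusted p = 0.341), so the probe sets of this gene disagree. Sting1 had 116, 149 and 241 as its low, median and high in ears given indomethacin before mustard, all below the lowest mustard ear at 246. The difference was −0.82 ± 0.21 (adjusted p = 0.0403), and the call was lost in 7 of 11 fits with 1 ear left out. The Sting1 probe set on array B gave −0.42 and was not called (limma adjusted p = 0.718).

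Among the members that were not called, the difference was 1.25 ± 0.55 for Cxcl9 (limma adjusted p = 0.202), 0.73 for Cxcl10, 0.66 ± 0.19 for Iigp1 (adjusted p = 0.0561) and 0.57 for Igtp. It was −0.08 for Irf1, −0.17 for Gbp7, 0.12 for Psmb9 and 0.13 for Tap1. Cxcl9 had a low of 127, a median of 196 and a high of 350.1 in ears given indomethacin before mustard, against 34.3, 229, 44.0, 34.3 and 115 in mustard ears. Animal 21 was the highest indomethacin ear for Rsad2, Gbp2, Igtp, Irf1, Xaf1 and Cxcl10. Among the other interferon targets Parp12 rose by 0.73 (adjusted p = 0.0220) and Ifi47, an immunity-related GTPase, by 0.96 (adjusted p = 0.0356), each higher in all 6 ears than in any mustard ear. No neutrophil or macrophage gene was called in this comparison. The neutrophil level ran from 7.68 to 8.28 in ears given indomethacin before mustard and from 7.67 to 9.07 in mustard ears.

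With octylhomovanillamide before mustard, 7 of 29 members were lower than in mustard ears and none was higher. On array A, 6 of 25 members were lower, where 10.5% of all probe sets were higher and 6.61% lower. On array B 1 of 4 was lower, where 6.54% were higher and 3% lower. The 7 were the effectors Oas2, Oasl1, Rsad2, Parp14, Ifitm3 and Ifi35 and the GTPase Gbp2. Dimmer Ifi35 probe sets gave −0.22 on array B and −0.31 on array A, neither called (limma adjusted p = 0.269 and 0.221). Samhd1 was not called at its brightest probe set (−0.75, limma adjusted p = 0.076). Its dimmer array A probe sets gave −0.67 and −1.18, both called, and −0.44, not called. The median difference of the members was −0.32, against 0.01 for all array A probe sets. Without rescaling all probe sets shifted by 0.71 and the members by 0.37, with 8 members higher and 1 lower. With the animal as a block, or without the mustard ears of animals 5 and 37, limma called none, with 3 and 5 members at an unadjusted p under 0.05. With array brightness or the Gapdh ratio as a covariate it also called none, with 4 and 6 at an unadjusted p under 0.05, and the members' medians were −0.12 and −0.20.

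Oas2 read 74.7, 38.6, 107, 52.0 and 40.8 in ears given octylhomovanillamide before mustard, against 129, 256, 172, 150.2 and 319 in mustard ears. The groups did not overlap. The difference was −1.49 ± 0.35 (limma adjusted p = 0.00369). Rsad2 was even, at 200.4, 191, 212, 217 and 203 in ears given octylhomovanillamide before mustard. All of these lay above the lowest mustard ear, at 177, and the difference was −0.84 ± 0.26 (adjusted p = 0.0205). The dimmer Rsad2 probe set gave 0.22 (adjusted p = 0.452).

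Ifitm3 read 5319.8, 3259, 6067, 3664 and 4352 in ears given octylhomovanillamide before mustard, against 7369.6, 6846, 8903, 4372 and 7954 in mustard ears, and 3 of the 5 were below every mustard ear. The difference was −0.64 ± 0.16 (limma adjusted p = 0.00572), and it was 0.10 without rescaling. Gbp2 read 146, 66.5, 137, 56.3 and 53.2 in ears given octylhomovanillamide before mustard, which splits the ears into 2 near the mustard values and 3 near the methylene chloride values. Its difference from mustard was −0.72 ± 0.25 (adjusted p = 0.0383). Parp14 read 174, 144, 142, 113 and 139 in ears given octylhomovanillamide before mustard, 4 of them below every mustard ear (−0.69 ± 0.17, adjusted p = 0.00586). Of the neutrophil genes 4 of 8 and of the macrophage genes 3 of 10 fell, and none rose. Among all probe sets 10.5% were higher and 6.61% lower on array A, and 6.54% and 3% on array B. Of the antigen-presenting and Langerhans cell genes H2-Aa (0.81) and Cd74 (0.59) rose and Itgax (−0.45) fell. The neutrophil level ran from 7.39 to 7.85 in ears given octylhomovanillamide before mustard and from 7.67 to 9.07 in mustard ears, and the part of these cells was not tested.

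Each drug before mustard was also set against methylene chloride. After dimercaprol 3 members were higher (Gbp2 by 0.77, Ifitm3 by 0.53 and Ifi35 by 0.43). Of all probe sets, 1.82% were higher and 1.23% lower there on array A, and 0.393% and 0.336% on array B. After octylhomovanillamide 1 was (Ifitm3, by 0.49, limma adjusted p = 0.0206), where 1.82% of all probe sets were higher and 0.947% lower on array A, and 0.324% and 0.214% on array B. After indomethacin 16 were, 13 on array A, where 16.3% of all probe sets were higher and 19.6% lower, and 3 on array B, where 5.67% were higher and 7.07% lower. No member was lower in any of the 3. The members' medians were 0.09, 0.09 and 0.40. With the animal as a block dimercaprol gave 0 calls in limma, with 4 members at an unadjusted p under 0.05. These 3 comparisons share their methylene chloride ears with each other and with that of mustard alone.

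In ears given indomethacin before mustard, 4 of 5 GTPases and 8 of 12 effectors were called. Gbp2 was 1.96 ± 0.18 above methylene chloride (limma adjusted p = 2.49e-11), which is 3.88-fold, and Igtp 1.30 above (adjusted p = 2.14e-07). Igtp had 251, 362 and 1112 as its low, median and high, all above the methylene chloride high of 237. Iigp1 was 0.99 above and Irgm1 0.60 above, and Gbp7, at 0.27, was not called. Xaf1 was 1.15 above, Ifit1 0.97, Rsad2 1.31, Oas1a 1.47, Ifitm3 0.92 and Ifi35 0.85.

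Members of other roles were called there too: Tap1 by 0.40 (limma adjusted p = 0.0067), Irf7 by 0.36, Irf1 by 0.32 (adjusted p = 0.0368) and Cxcl9 by 1.22 (adjusted p = 0.045). Cxcl9 held its call in 1 of 6 fits with an indomethacin ear left out and Irf1 in 2 of 6, and Irf7 lost its call without animal 19 or 21. Xaf1, Iigp1, Irgm1, Tap1, Irf7 and Cxcl9 were called after indomethacin and mustard but not after mustard alone. Of these, the direct difference between the groups was called for Xaf1 only, and the dimmer Xaf1 probe set gave −0.57 there (limma adjusted p = 0.341).

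The pretreated groups were also compared directly. Dimercaprol before mustard was lower than indomethacin before mustard for 9 members and higher for none, where 6.06% of all probe sets were higher and 4.45% lower on array A, and 1.08% and 0.7% on array B. The 9 included Rsad2 (−1.24, limma adjusted p = 0.000786), Gbp2 (−1.19, adjusted p = 0.000892), Igtp (−1.10, adjusted p = 0.00162) and Iigp1 (−0.90, adjusted p = 0.00169), with Xaf1, Trim30a, Ifit1, Usp18 and Irgm1. Octylhomovanillamide before mustard was lower than indomethacin before mustard for 5 members, where 1.17% of all probe sets were higher and 0.896% lower on array A, and 0.0174% and 0.0289% on array B: Gbp2 (−1.73 ± 0.24, adjusted p = 6.71e-05), Igtp (−1.21), Rsad2 (−0.93), Iigp1 (−0.86) and Irgm1 (−0.65). Of these 5 genes, 4 are interferon-inducible GTPases. With the animal as a block limma made no call in the 3 pairs together, against 28 results at an unadjusted p under 0.05. With array brightness as a covariate fewer members were called, as the last section gives. Here and below, values of Rsad2 and Xaf1 are those of the brightest probe set, which the dimmer ones did not match in comparisons above.

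Between dimercaprol and octylhomovanillamide before mustard limma called no member and no probe set (0% on both arrays), with 3 members at an unadjusted p under 0.05: Psmb8 (0.46), Ifih1 (0.53) and Gbp2 (0.55). The 95% interval of the difference was −0.27 to 0.35 for Ifitm3, −0.81 to 0.18 for Rsad2 and 0.07 to 1.02 for Gbp2. The doses differ, so these are differences between treatments as given.

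Without mustard, no member was called after a drug. Against ethanol limma called 0 of 27 members for dimercaprol, indomethacin and octylhomovanillamide, and 0% of all probe sets, with 3, 4 and 3 members at an unadjusted p under 0.05. The median differences of the members were 0.12, 0.10 and 0.06. Irgm1 was among those results for each drug, by 0.46, 0.45 and 0.65. These differences share the same ethanol ears, which averaged 202 for Irgm1, against 255 in naive ears. The ears with dimercaprol, indomethacin and octylhomovanillamide averaged 283, 281 and 327. Against naive ears limma also called 0 of 27 for each drug and for ethanol, with 0, 2, 1 and 0 at an unadjusted p under 0.05, where 0%, 0.163%, 0% and 0% of all probe sets were called.

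The drug effect with mustard was compared with the drug effect without it, as a difference of differences over array A. For dimercaprol 5 members were lower and none higher, where 5.25% of all probe sets were higher and 3.35% lower: Sting1 (−1.45 ± 0.36, limma adjusted p = 0.0081), Rsad2 (−1.35 ± 0.37, adjusted p = 0.0157), Trim30a (−1.22 ± 0.34, adjusted p = 0.0198), Ifitm3 (−1.05 ± 0.27, adjusted p = 0.0100) and Parp14 (−0.83 ± 0.25, adjusted p = 0.0308). For indomethacin only Sting1 was (−1.69 ± 0.36, adjusted p = 0.0474), where 0.0188% were higher and 0.0188% lower. For octylhomovanillamide only Irgm1 was (−0.98 ± 0.26, adjusted p = 0.0341), where 1.35% were higher and 0.495% lower. The drugs without mustard were set against 3 ethanol ears, and for Sting1 these read 178, 206 and 79.3. For Irgm1 the ethanol ears ran from 177 to 217. Its difference with octylhomovanillamide before mustard against mustard alone was −0.32 and was not called. Without rescaling none of the 7 was called, with 11 results at an unadjusted p under 0.05. With array brightness or the Gapdh ratio as a covariate fewer members were called, as the last section gives. No fit of these differences left out the mustard ears of animals 5 and 37 together.

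**Figure D4:**
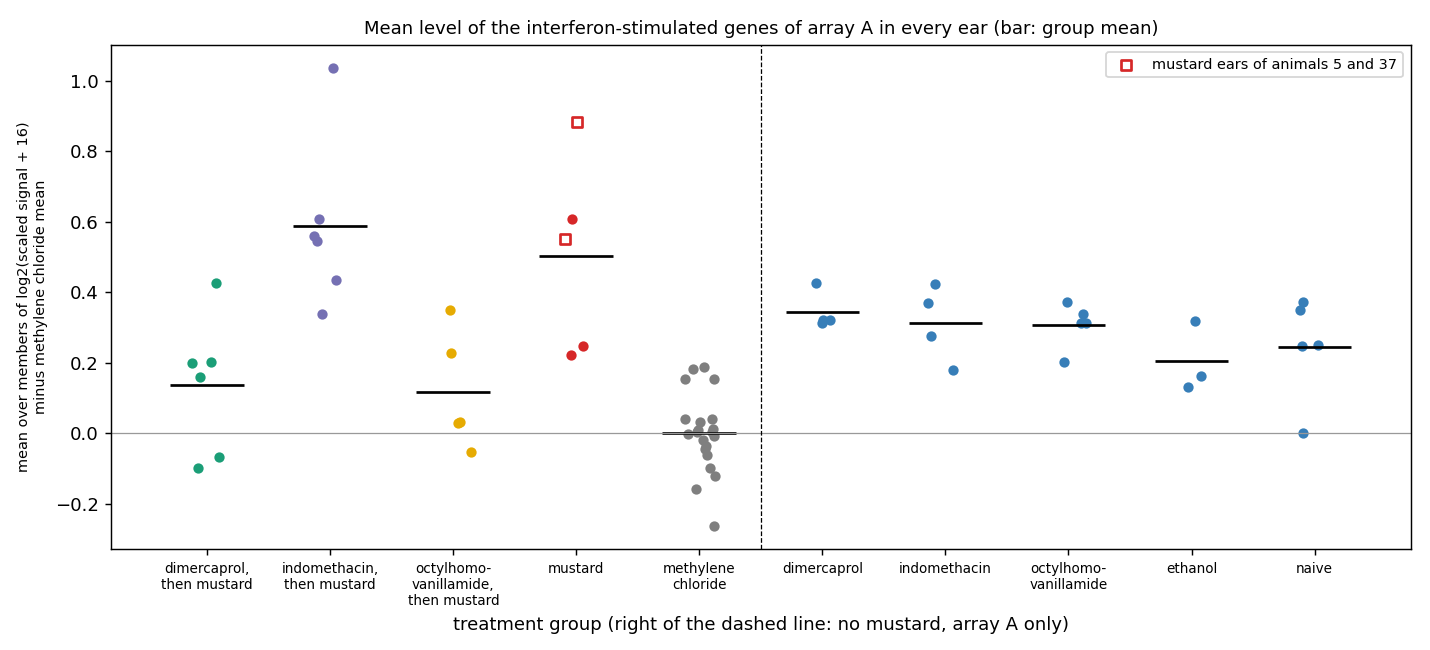
Mean over 27 interferon-stimulated genes on array A of log2(scaled signal + 16) minus the methylene chloride mean, for each ear (points) with the group mean (bar), by treatment group. Ears given indomethacin before mustard (0.34 to 1.04) and mustard ears (0.22 to 0.88) lie above all methylene chloride ears (−0.26 to 0.19), and the ears without mustard lie between 0.00 and 0.43.

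The plot of ear means puts all groups on 1 scale. The mean was 0.14 ± 0.19 (SD, n = 6) with dimercaprol before mustard, 0.59 ± 0.24 (n = 6) with indomethacin before mustard and 0.12 ± 0.17 (n = 5) with octylhomovanillamide before mustard. In ears without mustard it was 0.35 ± 0.05 for dimercaprol, 0.31 ± 0.11 for indomethacin, 0.31 ± 0.06 for octylhomovanillamide, 0.20 ± 0.10 for ethanol and 0.24 ± 0.15 for the 5 naive ears. The ranges of these ears overlap that of the mustard ears, and no test was made on these means.

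Methylene chloride ears were set directly against naive ears, with the ears of a naive animal averaged (n = 21 and 3 animals). In limma 3 members were lower and 1 higher, where 14.1% of all array A probe sets were lower and 7.4% higher, and the members' median was −0.27 against −0.07 for all. Rsad2 averaged 156 ± 31.7 in methylene chloride ears and 270.5 ± 32.9 in naive animals (−0.75 ± 0.23, adjusted p = 0.0166). The 5 naive ears of Rsad2 read 299, 240.2, 229, 274 and 281, all above the methylene chloride high of 223. Gbp7 averaged 159 ± 31.8 in methylene chloride ears and 247 ± 50.6 in naive animals (−0.59 ± 0.18, adjusted p = 0.0151), and Irf1 499 ± 70.8 and 666 ± 49.9 (−0.42 ± 0.16, adjusted p = 0.0472).

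The array A probe set of Ifi35 was higher, at 292 ± 73.2 in methylene chloride ears and 110 ± 22.3 in naive animals (1.29 ± 0.26, limma adjusted p = 0.000394). Without rescaling 1 member was called, higher. With array brightness as a covariate the count was also 1. Of the 21 methylene chloride ears 17 came from animals whose right ear is among the mustard groups, and the naive ears from other animals, so solvent, animal and any shared handling cannot be told apart.

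Methylene chloride ears, being the largest group, show how steady each gene is without mustard. Oas1a had the widest spread of the 27 members on array A, with an SD of 0.98 on the log2 scale over 21 ears, above 99.5% of all probe sets. Its ears ran from 38.3 to 263, with a median of 137. Cxcl10 (0.72) and Oas2 (0.54) followed. The steadiest were Iigp1 (0.20), Irf1 (0.21), Usp18 (0.22) and Ifitm3 (0.22). The median SD was 0.28 over the members and 0.26 over all probe sets, and 19 of 27 members were above that of all probe sets.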

How the data were processed

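Ear biopsy RNA was hybridised to array A, and for the mustard and methylene chloride groups also to array B. The authors deposited linear intensity values made with MAS5, per the submitters' processing notes. The version, background setting and scaling target of MAS5 are not given in the sources used here. Groups were read from the titles and treatment labels.

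Signals were brought to a common 2% trimmed mean of 500 per array, control probe sets left out, and log2(signal + 16) was analysed. A minimum of 100 on the mean scaled signal left 15953 of 22690 probe sets on array A and 17287 of 22575 on array B. A gene was represented by its brightest probe set over both arrays, or over array A for groups measured only there. Brightness was compared after scaling, which raised the dimmer array B more, so the scaling bears on which probe set was used and which passed the minimum. Linear models were fitted per array with limma 3.58.1 (lmFit, eBayes with trend) in R 4.3.3, with data.table, version 1.17.8. Mustard and methylene chloride groups shared 1 fit, and ears without mustard another, with naive ears averaged per animal. All array A ears entered the differences of differences and the comparison of methylene chloride with naive. P-values were 2-sided, with Benjamini-Hochberg adjustment over all kept probe sets of an array and a threshold of 0.05. The fit was tested on simulated data, in which every ear was drawn independently with the spread of the methylene chloride ears. For mustard against methylene chloride over 15953 probe sets it recovered 97% of changes of 1 on the log2 scale. Of its calls 5.74% were false. The real mustard ears spread more, with an SD of the mean over members of 0.27 against 0.11, so the 97% does not measure recovery in these data. Arrays have no read depth, so precision rests on how many ears each group has. No 2 arrays held identical values.

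Values of every ear, or the lowest, median and highest in groups of more than 5 ears, are given for the 12 members with the smallest adjusted p after mustard alone and the 3 with the smallest in each comparison of a pretreatment with mustard. Up to 4 genes with the smallest adjusted p are named from each other list. Further members and genes named were chosen after their values were seen. The members, lists and tests were chosen with earlier results of these data known. Motifs were searched in RefSeq promoters (GRCm38.p6). Alternatives were no rescaling, quantile normalization, a pseudocount of 64, a floor of 16, no minimum or a minimum of 300, and no trend. Others were the mean over probe sets, the Gapdh ratio or brightness as a covariate, and the animal as a fixed or random block. Each ear or naive animal outside the methylene chloride group was left out in turn. The mustard ears of animals 5 and 37 were also left out together, but only in the fit of the mustard and methylene chloride groups. A representation by array A probe sets was added after seeing the data. The block of the results above is the fixed one, which pairs left and right ears of the same animal, per the labels. It kept only animals with both ears: 17 methylene chloride ears, 4 with mustard alone, and 4, 4 and 5 with dimercaprol, indomethacin and octylhomovanillamide before mustard. Fewer ears and the pairing thus change together. The random block kept all ears. Over 17 such pairs the deviations from the group means had a mean correlation of 0.164 (9 of 17 over 0.1), against −0.00609 between different animals.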

Additional observations from a re-analysis of the deposited data

Results flagged for a closer look

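In ears given indomethacin before mustard, animal 21 stood apart for Irf1, at 1246 against 437 to 631 in the other 5 ears, a gap of 0.653 of the group's range on the scale of log2(scaled signal + 16). In ears given dimercaprol before mustard, animal 9 was low for Samhd1, at 163 against 378 to 602 in the other 5, a gap of 0.636 of the range on the same scale. These were 2 of 52 groups of ears examined, and chance flags about 1 in 20. The effect of a drug differed with and without mustard by −1.45 for Sting1, −1.35 for Rsad2, −1.05 for Ifitm3, −1.22 for Trim30a and −0.83 for Parp14 with dimercaprol, by −1.69 for Sting1 with indomethacin, and by −0.98 for Irgm1 with octylhomovanillamide, each tested as a difference of differences in limma.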

How the results depend on the processing

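Calls among the members depended on the scaling and on the mustard ears of animals 5 and 37. Mustard against methylene chloride gave 16 calls, against 9 without rescaling, 5 of 11 tested at a minimum of 300, 8 with the Gapdh ratio, 5 with brightness, 6 with the replicate block and 9 without ears 5 and 37. The differences from mustard, in the same order of settings where they moved, were 10 for dimercaprol (5 at 300, 2, 0, 1 with the block, 1 without the ears), 3 for indomethacin (17 without rescaling, then 0 with the Gapdh ratio, brightness, the block or without the ears) and 7 for octylhomovanillamide (2 at 300, otherwise 0 in the last 4). For these calls of 0 limma gave 2 to 10 members at an unadjusted p under 0.05. Without rescaling the direction of the calls also turned, to 13 higher with dimercaprol and to 8 higher and 1 lower with octylhomovanillamide. Against methylene chloride, dimercaprol gave 3 (0 with the block), indomethacin 16 (8 at 300, 11 with the block) and octylhomovanillamide 1 (0 without rescaling, 2 with quantile normalization). The drug pairs gave 14 (4 without rescaling, 5 at 300, 9 with brightness, 0 with the block), methylene chloride against naive 4 (1 without rescaling, with quantile normalization or with brightness, 0 at 300), and the differences of differences 7 (0 without rescaling, 2 at 300, 4 with the Gapdh ratio, 1 with brightness). The block left octylhomovanillamide against methylene chloride at 1, and it was not fitted to comparisons with ethanol or naive ears or to the differences of differences. Nor were ears 5 and 37 left out together for the differences of differences. Each ear or naive animal was left out in turn, except the methylene chloride ears, of which none was left out. This gave 10 to 19, 6 to 12, 0 to 3 and 3 to 9 calls in the first 4 comparisons. It gave 1 to 3, 13 to 16 and 0 to 1 for the drugs before mustard against methylene chloride. It gave 9 to 17 for the pairs, 1 to 4 against naive, 2 to 14 for the differences of differences and 0 for drugs against ethanol. Without rescaling, Irf1 (−0.22) and Usp18 (−0.077) turned against methylene chloride, Parp14 (0.093) with dimercaprol and Ifitm3 (0.099) with octylhomovanillamide. The cause of these changes was not tested, except that a minimum of 300 tests fewer genes. Quantile normalization, pseudocount, floor, trend, the mean over probe sets and the array A probe sets moved no other count by over 1.5 times. The animal as a random block, which kept all ears, moved no count by over 1.5 times.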
